A study of Homo sapiens with 12 samples.

Results

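This comparison follows wild-type (WT) Jurkat cells from rest into activation, with 6 of the 12 libraries of the series. Jurkat is an established line from a human T-cell leukaemia and a standard model of T-cell signalling. The 3 libraries labelled WT rest came from untreated cells, and the 3 labelled WT act came from cells given 20 ng/mL of the phorbol ester PMA together with 500 ng/mL of the calcium ionophore ionomycin for 24 h. Both groups are labelled WT and were grown in RPMI1640 with serum, and the other 6 libraries are HuR knockout (HuRKO) cells at rest or activated. The members are all 2587 of the 2587 genes in the authors' deposited table, read in its comparison of activated with resting WT cells.

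PMA stands in for diacylglycerol and switches on protein kinase C and Ras signalling, while ionomycin lets calcium into the cell and so activates calcineurin and the NFAT transcription factors. With AP-1 and NF-kB, NFAT factors drive the cytokine and surface receptor genes that a T cell turns on when its antigen receptor is engaged. Jurkat cells resemble a stage of thymic development at which recombination and CD1 genes are still in use, so both a gain of effector genes and a loss of thymic genes can be read in them. PMA and ionomycin act below the receptor, and the line has carried its leukaemic mutations through long culture, which limits it as a model of a normal T cell.

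The table gives no value for a single library. Each level below is a normalised count for a group of 3 libraries, rebuilt from the mean and the changes that the authors deposited, and has no spread of its own. A gene is called raised or lowered here when its false discovery rate (FDR) in the authors' deposited table is below 0.05, and that FDR is the only measure of replicate error. The floor is 3 counts over the 3 libraries of a group, or a level of 1, and a fold against a group below the floor is given as "at least". The depth of each library is unknown, and nothing in the labels says that replicates were separate cultures, so the FDR may measure technical spread only. In bulk RNA, fewer cells that express a gene and less of its RNA in each cell cannot be told apart. Levels are relative to the rest of a library, and the table cannot show whether total RNA per cell changed.

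Activation moved most of the listed genes, and more of them up than down. Of the 2587 genes, 1346 were raised (52.0%), 565 were lowered (21.8%) and 676 were not called, so 73.9% were called in 1 direction or the other. By more than 4-fold, 1157 were raised (44.7%) and 372 lowered (14.4%). The table holds only genes that passed FDR 0.05 and 4-fold in at least 1 of its 4 comparisons, so the counts over 4-fold are not limited by the other comparisons, while the counts at FDR alone cover listed genes only. Through another comparison 1058 genes entered the table without passing 4-fold here, and 382 of these were still called. Counts for the gene lists below cover only members in the table, and a list gene outside it has no value here. The share called in a list is therefore raised by how the table was made. The median log2 change of all rows was 1.42, or 1.29 with levels below the floor set to it. Centred on that 1.42, the over 4-fold calls would split into 537 raised and 549 lowered, so raised genes would make up 49.4% of them in place of 75.7%. That median is taken over genes listed for a large change, so it is not a neutral centre, and subtracting it moves the split toward balance by itself. Signs said below to turn under the centring carry the same limit. ABCA5 lay just inside the 4-fold threshold at 70.2 at rest and 281 after activation, and VSIR just outside it at 332 at rest and 1328 after activation.

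The calls are given by resting level as a description only. The resting level is also the denominator of the change, and the lowest mean over all libraries in the table is 4.87, so a gene that rests below about that level is listed only because another group is higher. Of 314 genes below the floor in resting cells, 234 (74.5%) were raised over 4-fold. In the range from 1 to 10 these were 447 of 858 genes (52.1%), and 42 were lowered (4.9%). Among the 174 genes highest at rest, those at a level of 1000 or above, 33 were raised (19%) and 65 lowered (37.4%). The ranges below 10 are therefore tilted to rises by how the table was made. With the floor applied, 379 genes rose and 49 fell by over 16-fold, and 132 rose and 9 fell by over 64-fold. Over 1024-fold there were 22 rises and 0 falls.

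**Figure D1:**
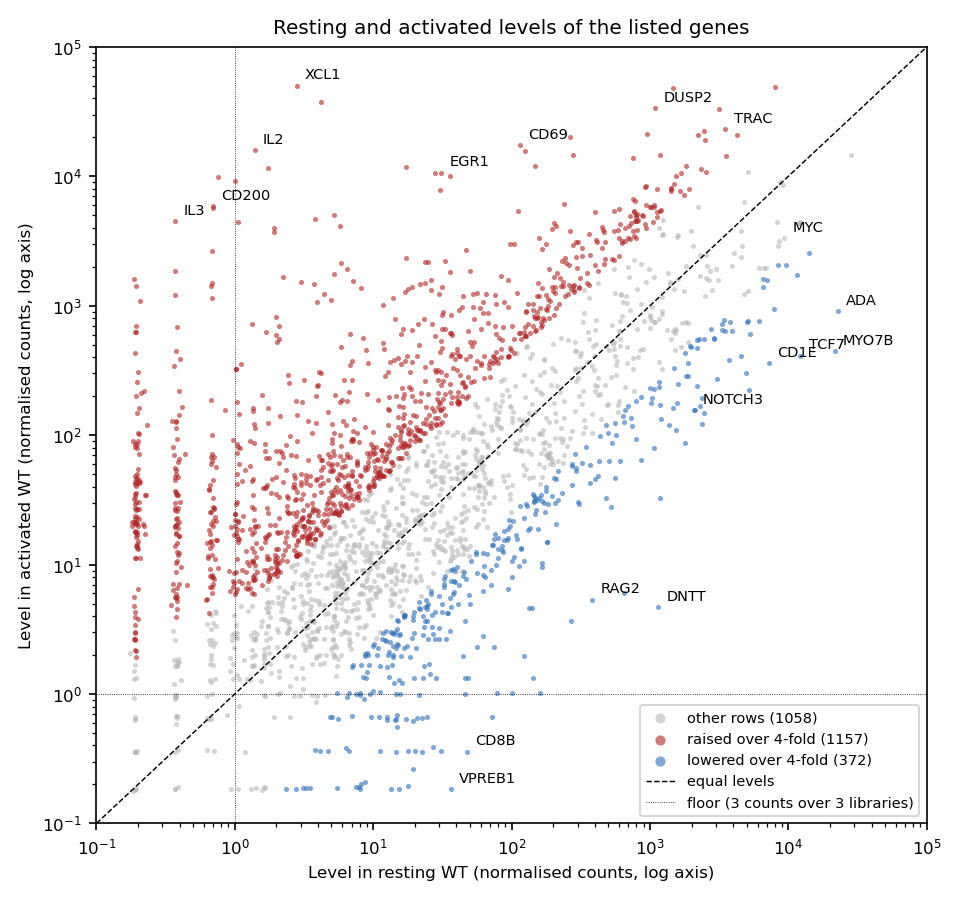
Level of each of the 2587 listed genes in resting WT cells (horizontal, normalised counts, log axis) against activated WT cells (vertical, same unit), 1 point per gene, coloured by whether it was raised over 4-fold, lowered over 4-fold or neither. Of the 174 genes highest at rest, 65 lie in the lowered group and 33 in the raised group.

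The 15 largest rises after the floor included chemokines, cytokines, surface receptors and genes better known from muscle. The lymphotactin chemokines XCL1 (ENSG00000143184.4, chromosome 1, 168576473 to 168582077 on the plus strand, hg38) and XCL2 rose 17988-fold and 9027-fold, from 2.8 to 50373 and from 4.2 to 37914. Their sequences are nearly identical, so the split of reads between them is uncertain. IL2 (ENSG00000109471.4, chromosome 4, 122451470 to 122456725 on the minus strand), the T-cell growth factor, went from 1.39 to 16006, and in the authors' deposited table its log2 change was 13.49 (FDR 2.6e-53). XIRP1, an actin-binding protein of striated muscle, rose at least 9932-fold from below the floor to 9932, and MB, the muscle oxygen carrier myoglobin, rose 6704-fold from 1.74 to 11674. GBP2, an interferon-inducible GTPase, rose 9235-fold from a resting level of 1.0, barely above the floor. The surface receptors CD200 and TNFRSF9 rose at least 5854-fold and 4241-fold, and the zinc finger factor EGR2 1922-fold. SDC4, a cell-surface proteoglycan, rose at least 5668-fold to 5668. SERPINA1, the secreted protease inhibitor alpha-1 antitrypsin, reached 1859 from below the floor, and the transcription factor ARNT2 reached 2664. MIR3142HG, the host transcript of the microRNA miR-146a, rose 2056-fold from 1.93 to 3966. An FDR listed as 0 in the authors' deposited table was found for 7 genes, among them TRAF1, IL21R, CD69, IER3 and PHLDA1, which rose, and MYO7B, which fell.

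Of the 15 largest falls, 5 were those of genes on the immature thymocyte list, namely DNTT, RAG2, CD8B, VPREB1 and ARPP21. That list has 20 of the 2587 rows, and it was chosen with earlier results of these data known. DNTT (ENSG00000107447.7, chromosome 10, 96304396 to 96338564 on the plus strand), the terminal transferase that adds bases at recombining receptor genes, fell 245-fold from 1142 to 4.67, with a log2 change of -7.93 (FDR 2.7e-76) in the authors' deposited table. RAG2, a subunit of the recombinase, fell 71-fold from 381 to 5.37. HKDC1, a hexokinase family member, fell 160.1-fold from 162 to 1.01, and TSHR, the thyrotropin receptor, 107-fold from 647 to 6.07. GPR17, an orphan G-protein-coupled receptor, went from 78.1 to 1.02. MYO7B, a myosin of brush borders, fell 48.2-fold from 21630.3 to 449. CD8B fell at least 47.6-fold from 47.6 to below the floor and VPREB1, a surrogate light chain, at least 36.4-fold from 36.4 to below the floor.

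In counts gained, activated libraries gave the most to XCL1. The tyrosine phosphatase PTPN7, also among the largest gains, went from 8081 to 49393, the MAP kinase phosphatase DUSP2 from 1087 to 33778 and HMGCS1, an early enzyme of sterol synthesis, from 3157 to 33018. The non-classical class I molecule HLA-E went from 952 to 21082, the tryptophanyl-tRNA synthetase gene WARS from 2461 to 22483 and the GTPase regulator TAGAP from 264 to 20008. The largest loss was that of ADA, the adenosine deaminase that is abundant in the thymus, which fell 25-fold from 22825 to 913 (FDR 1.0e-171 in the authors' deposited table). MYO7B, the filamin FLNA (from 28555 to 14702), the transcription factor TCF7 (from 12209.8 to 412) and the endoplasmic calcium pump ATP2A3 (from 14031 to 2546) followed. Per kilobase of annotated exon, a scale on which genes can be ranked, the resting order of listed genes with at least 300 bases of exon was led by ADA at 8003, TRAC at 3596 and CD1E at 3299. Among the same genes, the order after activation was led by XCL2 at 67104, XCL1 at 36849, TRAC at 23858 and TRAV8-4 at 18606, with DUSP2 at 17483 and IL2 at 14304. ADA then stood at 320.2.

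Most cytokine genes in the table went up. Of 38 interleukin, interferon and colony-stimulating factor genes searched, 11 were in the table. Among these 11, 10 were raised, all over 4-fold, and 0 lowered, with a median log2 change of 6.06 against 1.42 over all rows. A rise over 4-fold here is itself enough to place a gene in the table. IL3 and CSF2 (GM-CSF), haematopoietic growth factors, rose at least 4504-fold and at least 1426-fold to 4504 and 1426. IFNG, the T-helper 1 cytokine interferon gamma, rose at least 79.6-fold but reached only 79.6 (FDR 2.9e-11 in the authors' deposited table). IL13 went from 7.0 to 372, LIF from 8.42 to 560.4, and EBI3, a subunit of IL-27 and IL-35, from below the floor to 213. IL23A went from 30.9 to 308, IL16 from 361 to 3579.9 and TGFB2 from 1.03 to 16.5. IL4 was the member not called, at 6.28 at rest and 3.02 after activation, so the T-helper 2 cytokines IL4 and IL13 stood apart in their calls, though the difference between them was not tested.

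Of 30 chemokine ligand genes searched, 11 were in the table. All 11 were raised, with a median log2 fold of 8.43 after the floor. CCL3 and CCL4, which attract monocytes and T cells, went from below the floor to 1203 and from below the floor to 1615, rises of at least 1203-fold and at least 1615-fold. Their copies CCL3L3 and CCL4L2 reached 85.5 and 345 from below the floor, and reads may be shared between a gene and its copy. CCL20, the ligand of CCR6, rose at least 391-fold to 391, and CCL1 went from 8.1 to 1379. The smaller rises were those of CXCL16 (from 3.39 to 64.7), CCL22 (from 1.03 to 18.8) and CCL5 (from 7.67 to 104). XCL1 and XCL2 held most of the list's summed level, which was 28.7 at rest and 93493 after activation.

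Of 11 listed TNF superfamily ligand genes, 8 were raised and 0 lowered. TNFSF14 (LIGHT) rose 956-fold from 5.22 to 4993, CD70 40.0-fold from 16.4 to 658, and TNF 16.9-fold from 93.7 to 1587 (FDR 8.7e-93 in the authors' deposited table). The death ligand TNFSF10 (TRAIL) went from 52.7 to 983, whereas FASLG reached only 9.53 from below the floor. TNFSF8 went from 76.2 to 1213, TNFSF15 from 5.8 to 101 and LTA from 154 to 1493. CD40LG (79.8 at rest and 133 after activation), LTB (389.9 at rest and 492 after activation) and TNFSF4 (304 at rest and 276 after activation) were not called.

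**Figure D2:**
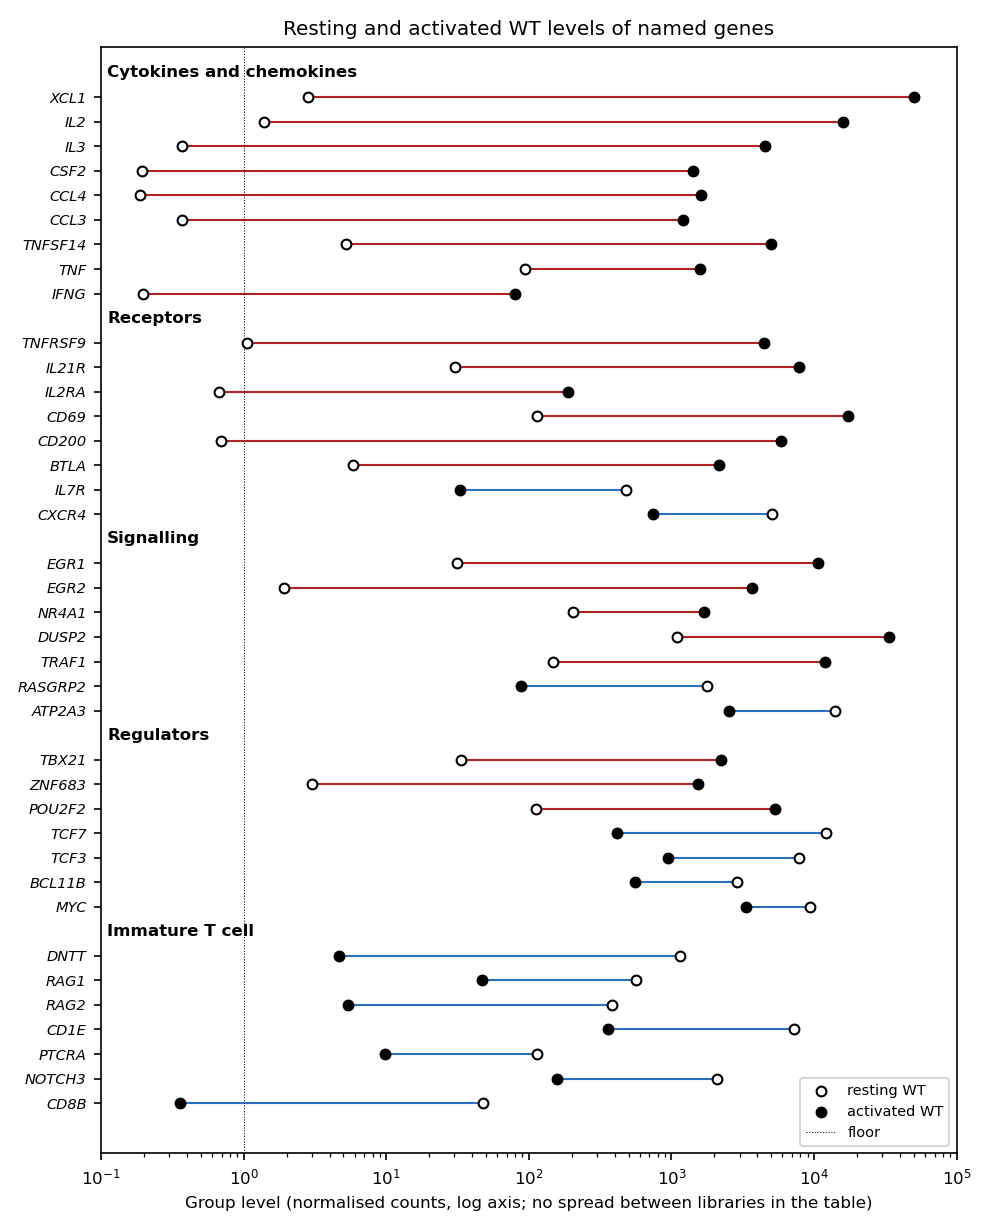
Levels in resting WT cells (open circles) and activated WT cells (filled circles) for 38 genes in 5 roles, on a log axis of normalised counts with the floor dotted; a level stands for 3 libraries and has no error bar because the table holds no value per library. Lines join the groups, and the cytokine and chemokine lines cross up to 4 decades (IL2 from 1.39 to 16006), while those of the immature T-cell genes run the other way (DNTT from 1142 to 4.67).

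Receptors split by function. Of 9 listed cytokine receptor genes, 7 were raised and 1 lowered, where 52.0% of all rows were raised and 21.8% lowered. The raised ones included chains of receptors that share the common gamma chain: IL21R went from 30.2 to 7856, IL4R from 178 to 3014, IL2RB from 59.5 to 969.8, IL15RA from 9.66 to 85 and IL2RA from below the floor to 187. Per kilobase of exon, IL2RA, the high-affinity chain CD25, ended at 47.1 and its partner IL2RB at 206. IL7R, the receptor for the survival cytokine of resting T cells, was the 1 lowered member and fell 14.6-fold from 481 to 32.9 (FDR 1.1e-62 in the authors' deposited table). IL12RB2 was not called, at 1.62 at rest and 2.05 after activation.

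Chemokine and homing receptor genes moved against the ligands, with 3 of 14 raised, 8 lowered and a median log2 change of -1.71. CXCR4, the CXCL12 receptor that holds precursors in marrow and thymus, fell 6.82-fold from 5063 to 743 (FDR 1.8e-52 in the authors' deposited table). CXCR3 went from 483 to 120.4, PTGDR2 from 118 to 13.3, CCR8 from 44.9 to 1.98 and CCR4 from 159 to 102. CCR9, a thymic and gut homing receptor, fell from 4.11 to below the floor. The egress receptors S1PR1 and S1PR4 fell from 66.9 to 19.7 and from 5.03 to below the floor. At FDR below 0.01, 5 members were lowered, and CCR4, CCR9 and S1PR4 lost their calls. The raised members were CCR7, the lymph-node homing receptor (from 22.1 to 211), GPR183, a receptor for oxysterols (from below the floor to 36.4), and CCR1 (from 3.07 to 19.9).

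All 7 listed TNF receptor superfamily genes were raised. TNFRSF9 (4-1BB), a costimulatory receptor of activated T cells, rose 4241-fold from 1.05 to 4446, and TNFRSF1B, the second TNF receptor, 275-fold from 4.45 to 1223. CD27, the receptor for CD70, went from 109.7 to 1264, TNFRSF4 (OX40) from 425 to 1488 and TNFRSF25 from 28.6 to 309. TNFRSF12A and TNFRSF18 (GITR) went from 22 to 108 and from 3.78 to 15.9.

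Of 23 listed activating and inhibitory surface receptor genes, 19 were raised and 3 lowered. The early activation marker CD69 rose 152-fold from 115 to 17426. Inhibitory receptors were among the raised genes, with BTLA going from 5.88 to 2139, PDCD1 (PD-1) from 44.6 to 1185 and its ligand CD274 from 21.5 to 501. CD200, which engages an inhibitory receptor on myeloid cells, rose at least 5854-fold to 5854, CRTAM at least 1432-fold to 1432 and CD160 at least 149-fold to 149. CTLA4 was raised too, but reached only 16.5. ICOS, a costimulatory receptor, went from 26 to 1573 and CD226 from 596 to 5573, whereas CD28 was not called (1495 at rest and 1342 after activation). The lowered members were CD7 (from 3890.0 to 643), LAIR1 (from 1675 to 479) and CD38 (from 328 to 219).

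**Figure D3:**
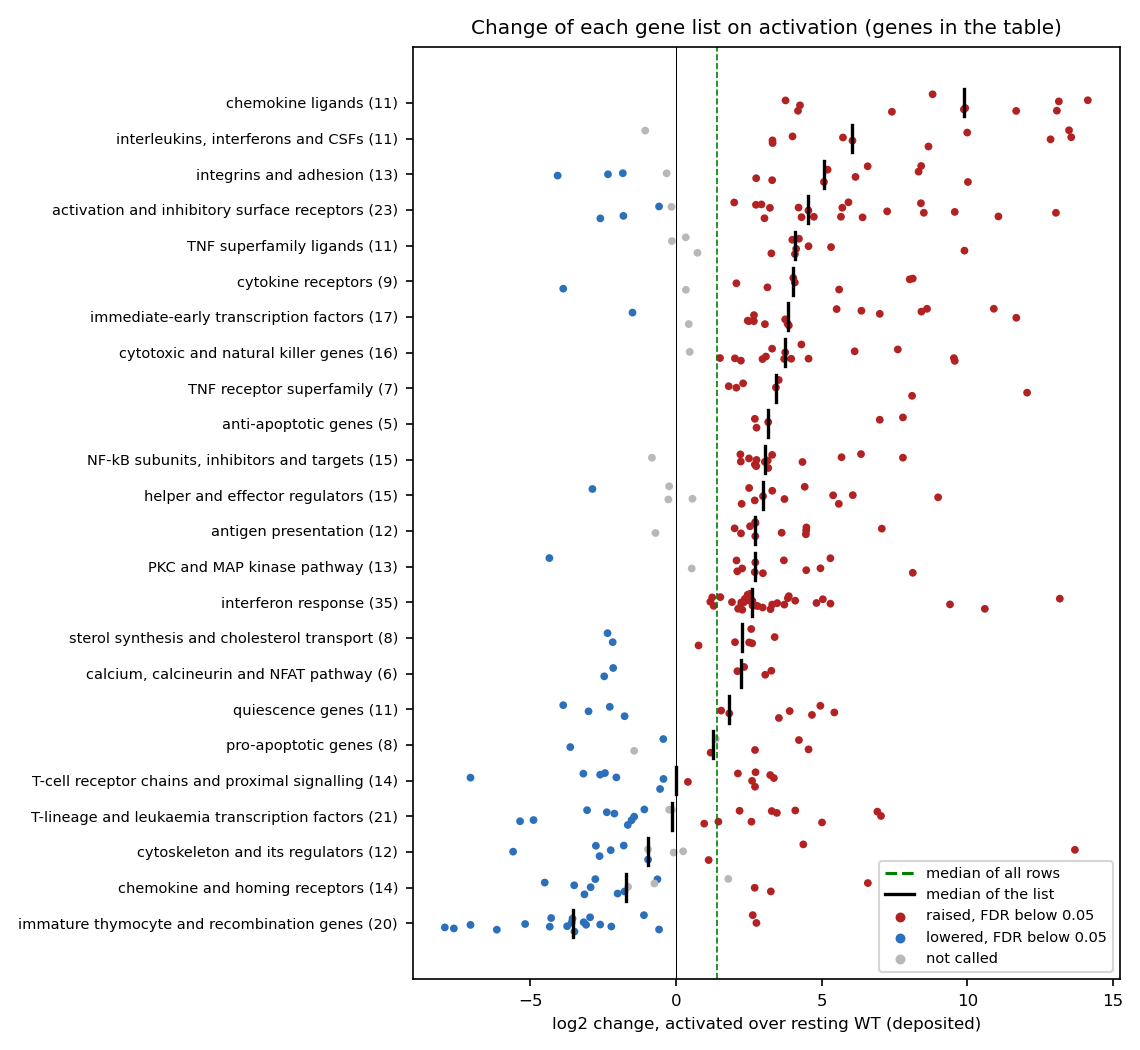
Deposited log2 change of each listed gene (points, activated over resting WT) for lists with at least 5 genes in the table (their number in brackets), with the median of each list marked. The chemokine ligand list sits farthest to the right and the immature thymocyte list farthest to the left (median -3.52), beside a median of 1.42 over all rows.

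The signalling genes that answer protein kinase C and calcium were mostly raised after 24 h. Of 17 listed immediate-early genes, 15 were raised and 1 lowered. The zinc finger factors EGR1, EGR2 and EGR3 went from 31.1 to 10697, from 1.92 to 3686 and from 3.75 to 1472, rises of 343-fold, 1922-fold and 392-fold. The orphan nuclear receptors NR4A1, NR4A2 and NR4A3 reached 1683, 629 and 483 from 203, below the floor and 5.87. Of the AP-1 subunits, JUNB went from 594 to 3369, JUND from 789 to 5033, JUN from 85.5 to 547, FOSL1 from 2.39 to 34 and FOS from 5.12 to 75. Per kilobase of exon, FOS ended at 23.2 and JUN, JUNB and JUND at 154, 1851 and 2701. MYC, the growth regulator, was the 1 lowered member and fell 2.81-fold from 9353 to 3323, and the authors' deposited table lists its FDR as 3.0e-05.

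Of 44 genes searched from the protein kinase C and MAP kinase pathway and its feedback inhibitors, 13 were in the table. Among these 13, 11 were raised and 1 lowered. Most of the raised ones encode inhibitors of the pathway, which the list was made to include. The phosphatases DUSP2, DUSP10, DUSP5, DUSP6, DUSP4 and DUSP8, which dephosphorylate MAP kinases, reached 33778, 1245, 606, 177, 66.6 and 93.3. The receptor signalling inhibitors SPRY1 and SPRY4 went from 149 to 639.8 and from 142 to 928. PHLDA1, a target of ERK signalling, rose 279.6-fold from 36.2 to 10117. RASGRP2, a calcium-sensing exchange factor for Rap proteins, was the 1 lowered member and fell 20.3-fold from 1779 to 87.6.

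Of 6 listed calcium, calcineurin and NFAT genes, 4 were raised and 2 lowered, where 52.0% of all rows were raised and 21.8% lowered. NFATC1, whose own gene is an NFAT target, went from 779 to 6512, the calcium-dependent kinase CAMK2D from 243 to 2344, the store release channel ITPR1 from 1126 to 4851 and the ubiquitin ligase CBLB, a brake on T-cell signalling, from 268 to 1353. The lowered members were both calcium pumps: ATP2A3 of the endoplasmic reticulum fell 5.51-fold and ATP2B4 of the plasma membrane 4.46-fold from 7067 to 1586. Without the 2 members with the largest changes, the list's median log2 change of 2.22 turned to -0.02.

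Of 33 NF-kB genes searched, 15 were in the table. Among these 15, 14 were raised and 0 lowered, with a median log2 change of 3.05. The subunits RELB, NFKB2 and REL went from 83.4 to 1691, from 754 to 6686 and from 369 to 2486. Genes that restrain the pathway rose too: TNFAIP3 (A20) went from 918 to 8239, NFKBIE from 281 to 1315 and NFKBID from 166 to 1373. TRAF1, a signalling adaptor and known target, rose 81.5-fold from 147 to 12015, and BCL2A1, a survival protein of the BCL2 family, 221-fold from 4.99 to 1104. BIRC3 and CFLAR, which block death receptor signalling, went from 586 to 3825 and from 724 to 4919. TNFAIP2 was not called, at 9.61 at rest and 5.42 after activation.

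Promoters of the raised genes were read for the NF-kB motif (GGG, any 2 bases, then TTTCC) on both strands, in the 250 bases before the start of each gene that RefSeq lists (GRCh38.p14, 1422 of 2574 symbols matched). It was found in 3.14% of 669 promoters of genes raised over 4-fold, in 0 of 169 promoters of genes lowered over 4-fold and in 1.73% of 27305 promoters of all genes. Over the 1422 matched listed genes its share was 2.04%. Of 13 matched NF-kB list genes, 3 held it. These shares were not tested, and a match shows letters, not binding. The windows below are shown because their genes are named in the results. They run 5′ to 3′ on the strand of the gene, with the motif or its reverse complement in capitals and its position counted from the start of the gene.
TNFAIP3 (chr6:137867182-137867211, plus strand, motif from -67): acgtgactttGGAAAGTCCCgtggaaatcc
TNFAIP3 (chr6:137867194-137867223, plus strand, motif from -55): aaagtcccgtGGAAATCCCCgggcctacaa
REL (chr2:60881518-60881547, plus strand, motif from -46): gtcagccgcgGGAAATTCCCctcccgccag
BIRC3 (chr11:102317275-102317304, plus strand, motif from -199): tttgggtcatGGAAATCCCCgagtgggttt
TNFRSF9 (chr1:7940894-7940923, minus strand, motif from -74): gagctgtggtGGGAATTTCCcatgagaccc
CCL20 (chr2:227813753-227813782, plus strand, motif from -79): tgatcaatggGGAAAACCCCatgtggcaac
MIR3142HG (chr5:160468121-160468150, plus strand, motif from -120): ggatctagaaGGGACTTTCCagagagggtt
IL4R (chr16:27313914-27313943, plus strand, motif from -50): tccgcgcccaGGAAAGCCCCgcgcggcgcg
The motif overlaps the NFAT core letters TGGAAA in both TNFAIP3 windows and in those of BIRC3 and MIR3142HG. TNFRSF9, CCL20, MIR3142HG and IL4R are outside the NF-kB list and rose 4241-fold, at least 391-fold, 2056-fold and 16.9-fold. TNFAIP3, REL and BIRC3 rose 8.97-fold, 6.75-fold and 6.53-fold.

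Genes of the interferon response that were in the table rose. Of 65 searched, 35 were in the table, and the others have no value here. All 35 were raised, 30 of them over 4-fold, with a median log2 change of 2.62. The guanylate-binding proteins GBP2 and GBP5, GTPases that act on intracellular microbes, showed the largest rises among those above the floor, from 1.0 to 9241 and from 17.4 to 11780.4. GBP2 was barely above the floor at rest, so the size of its fold is uncertain. The transcription factors STAT2, IRF7 and IRF9 reached 3159, 1069 and 294 from 627, 62.7 and 42.1. Among sensors and effectors of antiviral defence, IFIT3 went from 31.9 to 900.4, MX2 from 53.6 to 785 and OAS1 from 61.9 to 887, and OAS3 went from 1409 to 8154, IFIH1 from 262 to 1439, DDX58 from 306 to 1407 and IFIT1 from 76.6 to 438. The smallest rises were those of USP18 (from 555 to 1255), IFI6 (from 711 to 1683) and ISG15 (from 859.5 to 2105). Each of these 3 changes is below the 1.42 median of all rows, so their sign would turn if changes were centred on it. Of the interferon genes themselves, IFNG alone was in the table.

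Antigen presentation genes followed, with 11 of 12 raised and 0 lowered. The classical class I gene HLA-B went from 1188 to 14673, and HLA-F and HLA-G went from 44.2 to 983 and from 17.1 to 375. Class I genes are close in sequence, so reads may be shared among them. TAP1, the peptide transporter, went from 1543 to 10154 and NLRC5, the class I transactivator, from 704 to 4103. The class II invariant chain CD74 rose from below the floor to 27.1 only, and HLA-DRB1 reached 25.

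The core of the interferon-stimulated response element (GAAA, any 2 bases, then GAAA) was searched in the same 250 bases on both strands. It was found in 13 of 25 matched promoters of the interferon list (52%), in 6.13% of promoters of genes raised over 4-fold, in 1 of 169 promoters of genes lowered over 4-fold (0.592%) and in 3.07% of all promoters. Outside the interferon list, 4.64% of the promoters of genes raised over 4-fold held it, and over all matched listed genes the share was also 4.64%. Only the 100 bases nearest the start gave 32% for the interferon list and 1.22% for all promoters. Windows of 10 list members and of CD274 and TNFSF10 are shown, so that the letters can be set beside the rises.
OAS3 (chr12:112938321-112938350, plus strand, motif from -143): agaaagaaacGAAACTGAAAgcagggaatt
IFIT1 (chr10:89392497-89392526, plus strand, motif from -116): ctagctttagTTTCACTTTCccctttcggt
IFIT3 (chr10:89327865-89327894, plus strand, motif from -122): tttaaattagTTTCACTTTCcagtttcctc
ISG15 (chr1:1013380-1013409, plus strand, motif from -107): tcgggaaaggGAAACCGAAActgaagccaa
ISG20 (chr15:88638937-88638966, plus strand, motif from -69): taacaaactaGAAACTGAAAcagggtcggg
DDX60 (chr4:168318786-168318815, minus strand, motif from -53): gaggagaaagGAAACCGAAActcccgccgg
EPSTI1 (chr13:42992272-42992301, minus strand, motif from -50): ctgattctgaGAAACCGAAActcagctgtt
GBP1 (chr1:89065316-89065345, minus strand, motif from -127): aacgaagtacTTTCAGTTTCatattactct
TAP1 (chr6:32853813-32853842, minus strand, motif from -128): ccgctttcgaTTTCGCTTTCccctaaatgg
IFI44 (chr1:78649761-78649788, plus strand, motif from -18): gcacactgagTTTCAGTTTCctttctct
CD274 (chr9:5450324-5450353, plus strand, motif from -208): gactgacatgTTTCACTTTCtgtttcattt
TNFSF10 (chr3:172523598-172523627, minus strand, motif from -187): gaggagcttcTTTCAGTTTCcctcctttcc
The window of IFI44 is shorter because the start of the gene cuts it. In IFIT3 the motif overlaps TGGAAA. IFIT3 rose 28.3-fold, EPSTI1 11.1-fold, GBP1 9.86-fold, IFI44 7.86-fold, TAP1 6.58-fold, OAS3 5.79-fold, IFIT1 5.72-fold, ISG20 5.15-fold, DDX60 4.39-fold and ISG15 2.45-fold. CD274 and TNFSF10, outside the list, rose 23.3-fold and 18.6-fold. Promoters of OAS3 and TAP1 also held the NF-kB motif.

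The shares of the other motifs were not tested either. The AP-1 motif TGANTCA was found in 8.37% of promoters of genes raised over 4-fold, 5.92% of those lowered and 6.6% of all. It was found in 6.47% of all matched listed genes and in 12% of the interferon list. The NFAT core TGGAAA was found in 16.4%, 14.2% and 18.3% of the raised, the lowered and all, and in 32% of the interferon list and 30.8% of the NF-kB list. The cAMP response element TGACGTCA was found in 1.64%, 1.18% and 1.77% of the raised, the lowered and all. The cAMP response element does not contain the AP-1 motif as searched, while TGGAAA can overlap both the NF-kB and the interferon motif. Enhancers and other start sites were not searched.

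**Figure D4:**
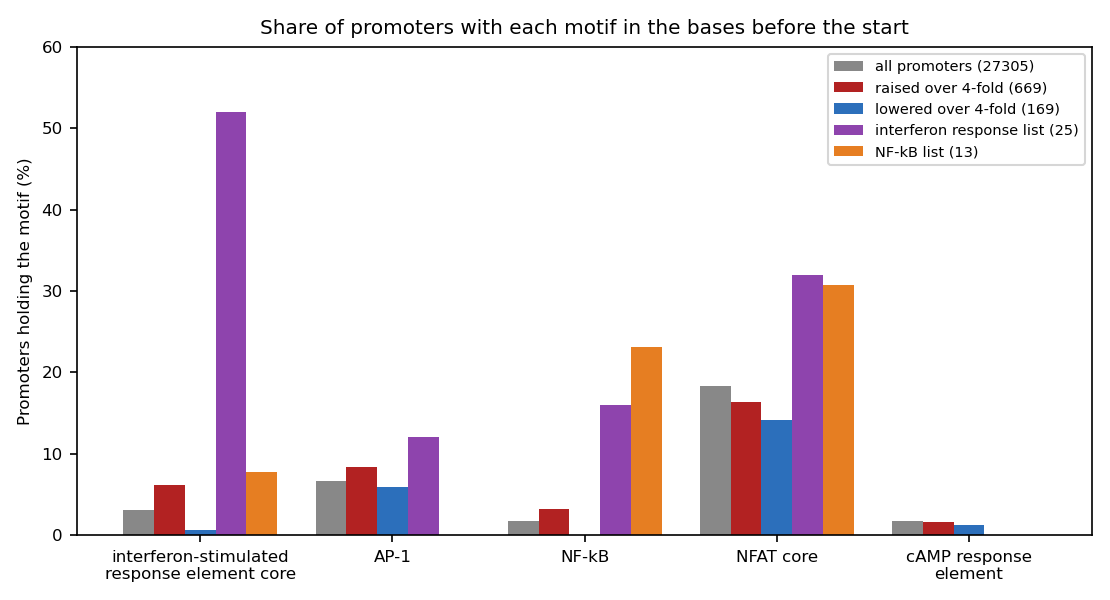
Share of promoters (percent, vertical) that hold each of 5 motifs in the 250 bases before the start, for all promoters, genes raised or lowered over 4-fold and 2 gene lists, with the number of promoters in the legend. The interferon-stimulated response element core stands at 52% in the interferon list against 3.07% of all promoters, and the NF-kB motif at 23.1% of 13 promoters in the NF-kB list against 1.73%.

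T-cell receptor and proximal signalling genes divided evenly, with 7 of 14 raised and 7 lowered. Over all rows 52.0% were raised and 21.8% lowered. The receptor alpha constant gene TRAC (ENSG00000277734.7, chromosome 14, 22547506 to 22552154 on the plus strand) rose 6.63-fold from 3510.1 to 23285 (FDR 1.2e-184 in the authors' deposited table). The adaptor LCP2 (SLP-76) went from 1824 to 11953 and the adaptor SH2D2A from 301 to 3085. PTPRC (CD45) was called raised with a small change, from 4756 to 6316, whose sign would turn under the centring. The coreceptor genes fell, CD8B below the floor and CD4 from 42 to 6.92. The adaptor GRAP2 (GADS), a partner of LCP2, fell from 3475 to 641, THEMIS, which tunes receptor signals in thymocytes, from 1459 to 161 and SH2D1A (SAP) from 1983 to 480.2.

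Of 31 genes of immature thymocytes searched, 20 were in the table. Among these 20, 18 were lowered, 16 of them over 4-fold, with a median log2 change of -3.52. The recombinase subunit RAG1 went from 560.1 to 46.9, beside the falls of RAG2 and DNTT. The pre-T-cell receptor chain PTCRA went from 114 to 9.73, and the surrogate light chain IGLL1 from 2395 to 123. The thymocyte lipid-presenting molecules CD1E and CD1B fell from 7268 to 361 and from 796 to 93.7. The receptor NOTCH3, itself a Notch target, fell 13.3-fold from 2084 to 156 (FDR 1.3e-180 in the authors' deposited table), and the Notch targets DTX1, HES4 and HES1 fell from 4551 to 407, from 1203 to 134 and from 36.5 to 4.72. ARPP21 went from 1186 to 32.8 and AQP3, a water and glycerol channel, from 2204 to 473. The raised members were NRARP, a feedback inhibitor of Notch (from 9.25 to 57.4), and MME (CD10, from 1.72 to 11.6). NRARP thus moved opposite to the other Notch genes.

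T-lineage and leukaemia transcription factors split, with 10 of 21 raised and 9 lowered, where 52.0% of all rows were raised and 21.8% lowered. Most of the lowered ones stood high at rest: TCF7 (TCF-1) fell 29.6-fold (FDR 1.9e-203 in the authors' deposited table), the E protein TCF3 (E2A) 8.29-fold from 7830.3 to 944, and BCL11B, which guards T-cell identity, 5.19-fold from 2883 to 556. MYB, SOX4, ETS1 and IKZF2 fell from 6179 to 1963, from 8604 to 3184, from 8378 to 2912 and from 2788 to 1313. ERG went from 14.6 to below the floor. The raised ones included the inhibitors of E proteins, ID1 (from 67.3 to 742), ID2 (from 36.1 to 617) and ID3 (from 768 to 3488). LMO2, a T-cell leukaemia oncogene, rose 131-fold from 1.57 to 206, IKZF4 120.4-fold from 2.42 to 291, and ZBTB7B (ThPOK), the CD4 lineage factor, 32.3-fold from 4.7 to 152. GATA3 and RUNX3 were not called, at 1001 at rest and 851 after activation and 504 at rest and 456 after activation.

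Regulators of helper and effector states were raised in 11 of 15 cases and lowered in 1. TBX21 (T-bet), the T-helper 1 factor, rose 67.1-fold from 33.2 to 2230.4 (FDR 8.2e-163 in the authors' deposited table), and ZNF683 (Hobit), a factor of tissue-resident lymphocytes, 511-fold from 2.99 to 1526. POU2F2 (Oct-2) and its coactivator POU2AF1 went from 112 to 5364 and from 157 to 3361. BCL6 went from 77.8 to 1027 and STAT5A from 884 to 5038. FOXP3 and IRF4 were raised to only 42.5 and 10.7. EOMES was among those not called (102 at rest and 151 after activation), and IRF5, the 1 lowered member, went from 16.7 to 2.28.

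Of 27 cytotoxic and natural killer genes searched, 16 were in the table. Among these, 15 were raised, although 7 of the 16 were below the floor at rest. Granzyme B (GZMB) rose 743-fold from 2.24 to 1665 (FDR 3.7e-26 in the authors' deposited table), granzyme A (GZMA) went from 67.5 to 885 and perforin (PRF1) from 132 to 1030.2. CTSW and the granule proteoglycan SRGN went from 1131 to 5299.8 and from 599 to 2434. The lectin-like receptors KLRK1 (NKG2D), KLRF1 and KLRD1 (CD94) reached 70.8, 27.2 and 116. GNLY (7.1), KLRC1 (6.97) and GZMK (8.99) stayed low after activation, all from below the floor.

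All 5 listed anti-apoptotic genes were raised, namely BCL2A1, IER3, TNFAIP3, CFLAR and BIRC3, and IER3, also an immediate-early gene, rose 127-fold from 124 to 15847. All but IER3 are also on the NF-kB list. Of 8 listed pro-apoptotic genes 4 were raised and 2 lowered, near the shares over all rows of 52.0% raised and 21.8% lowered. BIK, a BH3-only protein, went from 297 to 1949 and BMF from 76.2 to 174, with a change of BMF small enough to turn sign under the centring. BID, which links death receptors to mitochondria, fell 12.3-fold from 2384 to 193 (FDR 9.2e-139 in the authors' deposited table). Among quiescence genes, 7 of the 11 listed were raised and 4 lowered, where 52.0% of all rows were raised and 21.8% lowered. The antiproliferative genes BTG1 and BTG2 went from 239.6 to 6083 and from 97.6 to 3026, the cell-cycle inhibitor CDKN1A (p21) from 31.6 to 473, FOXO1 from 40.4 to 467 and KLF9 from 6.16 to 267. KLF2, a factor of resting T cells, fell from 64 to 7.99, as did IL7R, KLF3 (from 38.6 to 11.4) and CDKN2D (from 501 to 104). Of 50 cell cycle and DNA replication genes searched, 2 were in the table, the D cyclins CCND1 (from below the floor to 55.7) and CCND2 (from 18.4 to 310.1).

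Metabolic genes in the table were few and mostly raised. In sterol synthesis HMGCS1, IDI1, MVD and MSMO1 rose 10.5-fold, 4.07-fold, 5.7-fold and 6.12-fold. The cholesterol exporters ABCA1 and ABCG1 fell from 24.3 to 4.77 and from 563 to 125. Of the 8 listed sterol and cholesterol genes 6 were raised and 2 lowered, where 52.0% of all rows were raised and 21.8% lowered. The glucose transporter SLC2A3 went from 191 to 1079.8 and ALDOC from 284 to 1274, beside the fall of HKDC1. The amino-acid stress genes ASNS, TRIB3 and VEGFA all rose, from 15.1 to 117, from 1079 to 6022 and from 207 to 1398.

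Adhesion and cytoskeletal genes went different ways. Of 13 listed integrin and adhesion genes, 9 were raised and 3 lowered, where 52.0% of all rows were raised and 21.8% lowered. TIMP1, a metalloprotease inhibitor, rose 341-fold from 5.2 to 1775, ITGAX (CD11c) 321-fold from 1.12 to 358, and VCAM1 at least 201-fold to 201. The leukocyte adhesion genes that were high at rest fell: ITGA4 (VLA-4 alpha) from 6907 to 1949.7, ITGAL (LFA-1 alpha) from 3798 to 753 and the selectin ligand SELPLG from 2462 to 147. The list's summed level was 13680.3 at rest and 8042 after activation, although more of its genes rose than fell. Of 12 listed cytoskeletal genes, 3 were raised and 6 lowered. MYO7B fell as above, the microtubule protein MAP1A 6.72-fold from 11539 to 1717, and the haematopoietic myosin MYO1G 4.72-fold from 6584 to 1394.

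Gene families that stood out were chosen after their values were seen and are described only. All 5 APOBEC3 cytidine deaminases in the table, which restrict retroviruses, were raised, with APOBEC3G going from 211 to 4129, APOBEC3B from 31.3 to 661 and APOBEC3A from 5.23 to 105. All 5 members of the SLAM family of lymphocyte adhesion receptors were raised, with CD48 going from 1418 to 7699.6. All 10 T-cell receptor alpha rows were raised, from TRAV19 (from 42 to 179) to TRAJ3 (from 3.27 to 42.8), and a common rearranged transcript can supply reads to V, J and constant rows. Of 17 immunoglobulin heavy variable rows 15 were lowered and 2 raised, and IGHV4-34, for example, went from 152 to 31.8. Of 26 replication-type histone genes 25 were lowered and 0 raised, with a median log2 change of -2.27. HIST1H1E went from 347 to 81.4 and HIST1H4E from 295 to 55.9. Most of these histone transcripts lack a poly(A) tail, so libraries of poly(A) RNA hold only part of them, and how much was carried over was not tested.

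Some genes that moved over 4-fold lay side by side. Runs of at least 3 listed neighbours moving the same way by over 4-fold, with gaps of at most 100000 bases, numbered 61 among raised and 14 among lowered genes. Each run was built from genes already past 4-fold, and annotated genes of a span that are outside the table have no value here. On chromosome 1, from 89006666 to 89272804 (GENCODE 29, hg38), 6 of 6 listed rows were raised, namely GBP1 to GBP5 and the pseudogene PTGES3P1. That span holds 11 annotated genes. On chromosome 22, from 38952741 to 39104067, 6 of 6 listed rows among 11 annotated genes were raised, namely 5 APOBEC3 genes and the clone-named AL031846.1. On chromosome 9, from 4984390 to 5128183, 6 of 6 listed rows among 14 annotated genes were raised, namely the kinase gene JAK2 and 5 pseudogenes inside its span. The strand setting of the counting is not given in the sources used here, so they may share reads. On chromosome 14, from 106206603 to 106470800 in the immunoglobulin heavy chain locus, 17 of 17 listed rows among 43 annotated genes were lowered. AC247036.1, HOMER2P1 and HOMER2P2 are among the 17 and do not carry IGHV names. On chromosome 6, from 26156354 to 26273356, 9 of 11 listed rows among 26 annotated genes were lowered over 4-fold, and those 9 are histone genes.

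**Figure D5:**
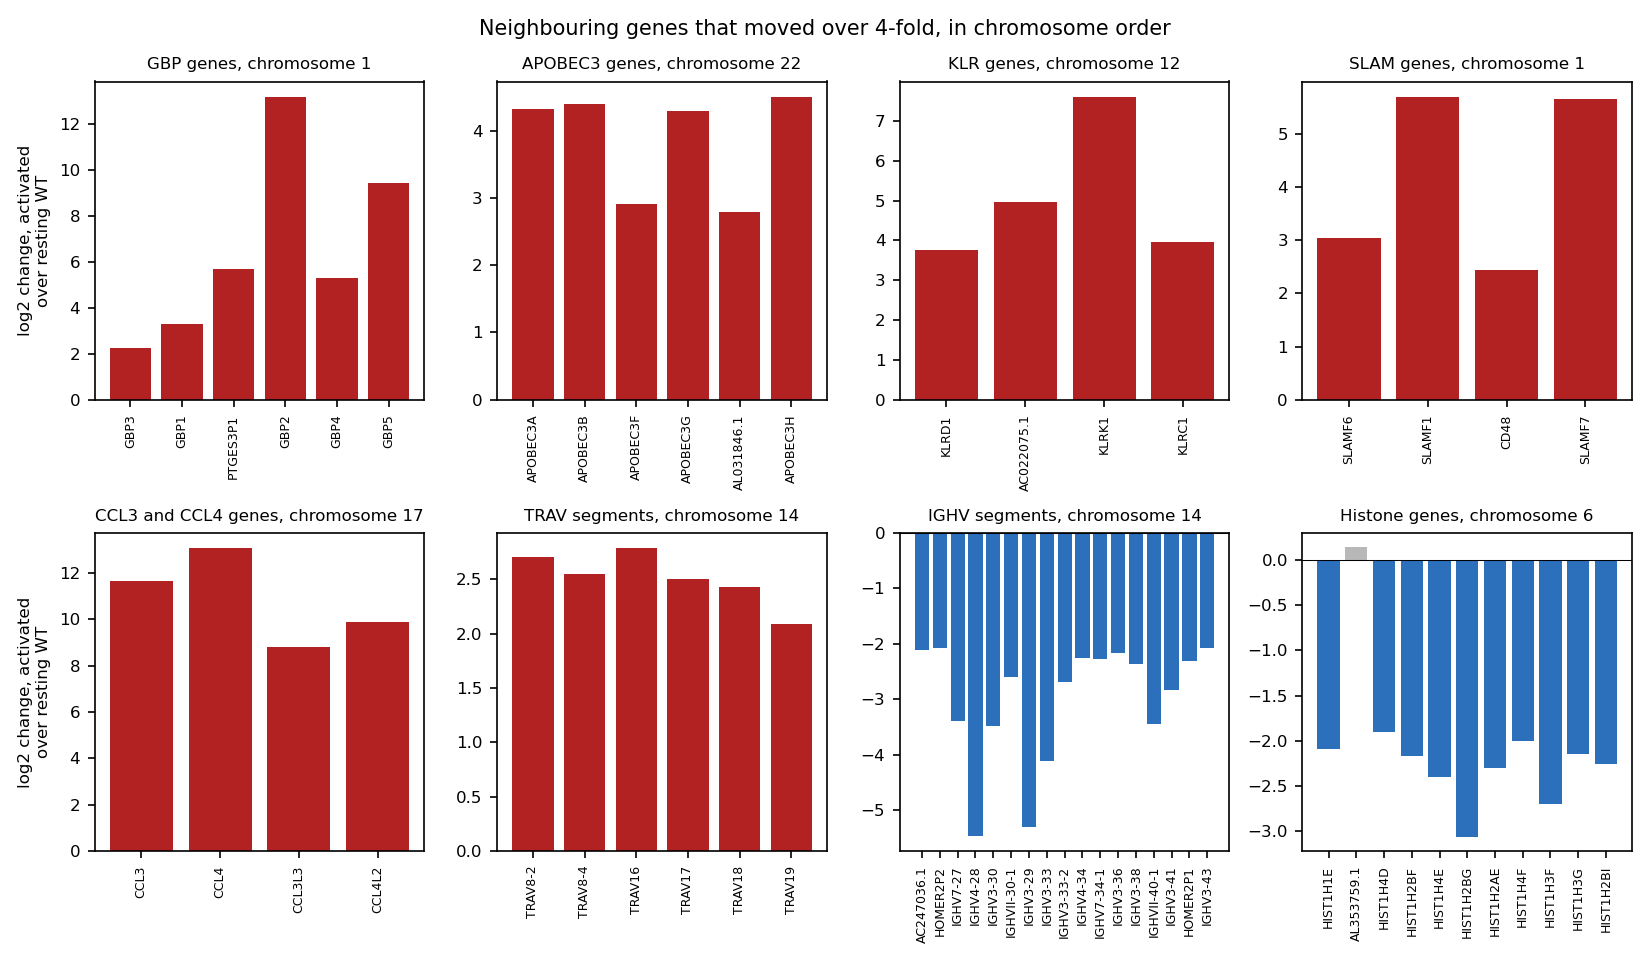
Log2 change (vertical, activated over resting WT) of listed genes in 8 chromosomal runs, in chromosome order, coloured by whether each was raised, lowered or not called (grey); 6 panels hold raised runs and 2 hold lowered runs. All 17 rows of the immunoglobulin heavy chain run and 9 of the 11 listed rows of the chromosome 6 histone run were lowered over 4-fold.

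The gene classes of the raised and lowered genes are given beside those of all rows, and were not tested. Protein-coding genes made up 76.9% of the genes raised over 4-fold, 65.9% of those lowered and 72.2% of all rows. Long non-coding RNAs made up 16%, 20.7% and 17.5%, and pseudogenes 5.45%, 9.41% and 6.57%. Raised genes had more annotated exon sequence, with a median of 3955.5 bases against 2550.0, and 3708 over all rows. All 5 mitochondrial transfer RNA rows were lowered, for example MT-TM from 27.3 to 2.91. Of 16 rows of 5S and 5.8S ribosomal RNA, 9 were lowered and 0 raised. Ribosomal 5S and 5.8S RNA are not made with a poly(A) tail, and how much of them was carried over into each group was not tested.

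Among the T-cell markers searched, TRAC stood at 3510.1 at rest and higher after activation, and the T-cell identity of the line was not tested. CD2, another T-cell marker searched, was called lowered, with a log2 change of -0.43 (FDR 2.0e-04 in the authors' deposited table). The adaptor LCP2, which was not among the markers searched, stood at 1824 at rest and higher after activation. Few markers of other blood lineages were in the table, and those outside it have no value here. Of 13 B-cell markers searched 3 were in the table, with a summed level of 5.36 at rest and 56.0 after activation, and CD79B and IGHM were raised (from 1.41 to 19.8 and from 3.76 to 34.5). Of 13 monocyte and macrophage markers 2 were in the table, ITGAM and CSF1R, both raised from below the floor to 67.2 and 7.11. Of 16 erythroid markers 3 were in the table and 0 were called. COL1A1, the 1 listed epithelial or fibroblast marker of 15, went from 29.3 to 210.0. Whether the rises of CD79B, IGHM, ITGAM and CSF1R came from the same cells was not tested.

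HuRKO cells were activated in the same way in other libraries, and their values stand beside these as a description. Of the 1157 genes raised over 4-fold in WT cells, 932 were also raised in HuRKO cells, 16 were lowered and 209 were not called, where 58.1% of all rows were raised and 18.5% lowered. Of the 372 lowered in WT cells, 240 were lowered, 31 raised and 101 not called. The median log2 changes in the authors' deposited table were 3.27 in WT and 2.41 in HuRKO cells for the raised genes, and -2.75 and -1.70 for the lowered ones, but the genes were chosen on the WT values, which favours larger changes there. Among those that moved in opposite directions, NR4A1 was at 197 at rest and 94.8 after activation in HuRKO cells and IFIT1 at 37.2 at rest and 6.3 after activation. MYO1G was at 5805 at rest and 21496 after activation and ITGAL at 3184 at rest and 5202 after activation in HuRKO cells, where they fell in WT cells. The difference between the responses was not tested here.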

How the data were processed

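Poly(A) RNA of 3 resting and 3 activated WT Jurkat libraries was compared. Per the labels' protocols, RNA was extracted with RiboZol and made into directional libraries with an NEBNext Ultra kit. TopHat and Bowtie2 with the hg38 build are named per the submitters' processing notes. Which counter was run, whether it used strand and which test gave the FDR is not given in the sources used here. Per the file headers, the deposited table gives a baseMean, a fold change and an FDR. The baseMean is read as a signal, in normalised counts averaged by the authors over all 12 libraries. The deposited changes are read as log2. The header names no base, but in resting WT cells a window 10% wide held up to 30.6% of the levels below 1 with base 2, 5.34% with base e and 2.03% with base 10. The FDR is a p-value already adjusted by the authors. There were 0 columns of single libraries, so depth, spread and intervals cannot be given, and no raw p-value allows a count adjusted over a list alone.

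Group levels were solved from the baseMean and the 4 changes for equal groups of 3 (Python 3.11.15, pandas 2.3.3, NumPy 2.4.6). Simulated levels passed through the same equations were recovered, which checks the arithmetic only. Whether the baseMean weighs the groups equally, and whether the deposited changes are plain ratios of group means, was not tested. Levels below 1 were set to 1 for folds. Calls used FDR below 0.05. Named genes were the 15 largest rises and falls after the floor, the 10 largest gains and losses of counts, the 10 smallest FDR, and in each of 31 gene lists up to 6 called members and the largest against its majority. Other genes are named as members of a list, for being not called, or after their values were seen. Families and runs of neighbours were chosen after seeing values. The members and lists were chosen with earlier results of these data known. Gene IDs matched GENCODE 29 for 2577 of 2587 rows, and 16 rows share a symbol. Of 1421 RefSeq promoters compared with GENCODE transcripts, 1119 hold a transcript start on the printed strand and 0 on the other. Alternatives were stricter FDR, fold and level thresholds, gene classes, centring, another floor, another log base, shorter promoters and lists without their 2 largest changes. Some genes that the rule names are not reported here.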

Additional observations from a re-analysis of the deposited data

How the results depend on the processing

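Of 30 recomputed counts of calls, 28 stayed within 1.5 times the reported value. Genes raised over 4-fold numbered 537 when changes were centred on the median of all rows, and genes lowered over 4-fold numbered 245 among protein-coding genes only. Without the 2 members with the largest changes, the median log2 change turned to -0.0244 for the calcium, calcineurin and NFAT list and to -0.0337 for the erythroid markers. The number of lowered chemokine and homing receptor genes was 5 at FDR below 0.01. Setting both WT groups at the floor or above, or leaving out small RNAs, histone genes and pseudogenes, was added after the data were seen and kept 1112 and 1274 raised genes and 510.0 and 480.0 lowered ones. Reading the changes as natural logs or raising the floor to 3 counts per library cannot turn a direction, so these alternatives bear on the size of a fold only. The log2 fold of IL2 was 13.49 as reported, at least 13.97 with natural logs and at least 12.38 with the higher floor. In both alternatives resting IL2 is below the floor, so these folds are lower bounds and do not show how far the log base matters. No paired analysis was possible because the table has no values per library, and for the same reason no replicate could be left out. Depth is unknown, so genes near the floor cannot be given an error.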

Other observations

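Some genes outside the lists above also rose far, and these were picked out after their values were seen. HDC, the enzyme that makes histamine, went from 3.81 to 4682, and HRH2, a histamine receptor, reached 1489 from below the floor. PHEX, a membrane endopeptidase known from phosphate balance, went from 27.9 to 10552, and the G-protein regulator RGS16 from 5.75 to 4149. IL1RN, the natural antagonist of the interleukin 1 receptor, reached 1085 from below the floor. The clotting factor gene F5 went from 23.6 to 2192.

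Some further genes of growth factor and retinoic acid signalling, picked in the same way, are given as values. The TGF-beta and BMP inhibitors PMEPA1 and SMAD6 went from 5170.2 to 225 and from 1547 to 110.1, whereas SMAD7, another inhibitor, rose from 13.7 to 61.9. ALDH1A2, which makes retinoic acid, fell 11.4-fold from 3075 to 271, and CYP26A1, which degrades it, went from 9.72 to below the floor. Of 15 rows with cytochrome P450 names 11 were raised and 1, CYP26A1, was lowered, where 52.0% of all rows were raised and 21.8% lowered. The raised rows include the pseudogenes CYP4F26P, CYP4F29P, CYP4F32P, CYP4F34P and CYP4F35P and the antisense RNA CYP4A22-AS1, so not all are enzyme genes. No explanation was tested for these values.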
